A study of Ovis aries with 4 samples.

Results

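The genes described here encode protein factors that start, extend and end translation, along with some regulators and other genes taken in by name. They were measured in the sheep conceptus on day 14 of pregnancy, and all are called translation factor genes below. They are the features of the deposited expression table whose name begins with EIF1 to EIF6, EEF1 or EEF2, or is ETF1, GSPT1 or TPT1. One symbol was left out by the rule and is not reported here. The rule found 55 of the 25197 features in the table, 52 of which carry a gene symbol there, and it uses names alone and no measured value. The series holds 4 conceptuses, each from a different Columbia and Rambouillet crossbred ewe. All 4 were flushed from the uterus on day 14 and belong to 1 group without treatment, so the data give levels and the spread between conceptuses, and no contrast. At this stage the conceptus is an elongating filament of trophectoderm and endoderm around a small embryonic disc.

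Translation of most cellular mRNA starts when the initiation factor eIF2 brings the initiator tRNA to the small ribosomal subunit, on which the large factor eIF3 is the scaffold. The cap-binding factor eIF4E, the scaffold eIF4G and the RNA helicase eIF4A recruit the mRNA, the ribosome scans to a start codon, and eIF5B joins the large subunit. Elongation factor eEF1 then delivers aminoacyl-tRNA, eEF2 moves the ribosome along, and the release factors end the chain. Phosphorylation of eIF2 and sequestration of eIF4E are the main switches by which cells lower initiation. Fast-growing tissues, of which the elongating ruminant conceptus is an example, depend on this machinery for protein synthesis.

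Each value is an RPKM, a level in which reads are divided by transcript length and by sequencing depth, as the authors deposited it. On the log2(RPKM + 1) scale Pearson's r between libraries, taken across features that are not independent replicates, was 0.982 to 0.990. At most 0.157% of values were shared by any pair, over features averaging 5 RPKM or more. Read depth is unknown. The commonest ratio of values in features detected in exactly 2 libraries put conceptuses 2, 3 and 4 at roughly 0.75, 1.0 and 0.667 of the depth of conceptus 1, with 28.9% to 35.4% of those features near the ratio. Compared directly, conceptuses 2 and 4 gave a ratio of 1.0 with 24.3% of features near it, so these ratios are rough and do not combine exactly. All 9 trophectoderm markers measured were at a mean of at least 1 RPKM, up to KRT8 at 6211 ± 1418 and the interferon tau feature TP-1 at 20347 ± 7992 RPKM. Of 5 blood and leukocyte markers, 1 was (CD68, 1.55 ± 0.417 RPKM), and the pan-leukocyte gene PTPRC did not exceed 0.04 RPKM in any conceptus. Each library is the RNA of a whole conceptus, so a lower level in fewer cells and less RNA per cell cannot be told apart.

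Translation factor genes were mostly well above the middle of the table. Of the 55 genes, 52 averaged 1 RPKM or more, 47 averaged 5 RPKM or more and 22 averaged 100 RPKM or more. Among all 25197 features the same levels were reached by 38.1%, 25.3% and 2.65%, and among the 15226 features with a symbol by 52.9%, 35.2% and 3.01%. The median translation factor gene stood at 42.1 RPKM, beside 0.128 RPKM over all features and 1.43 RPKM over features with a symbol. Together the 55 genes held 1.55%, 1.65%, 1.35% and 1.42% of the summed RPKM of conceptuses 1 to 4. That share was highest in conceptus 2 and lowest in conceptus 3.

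**Figure D1:**
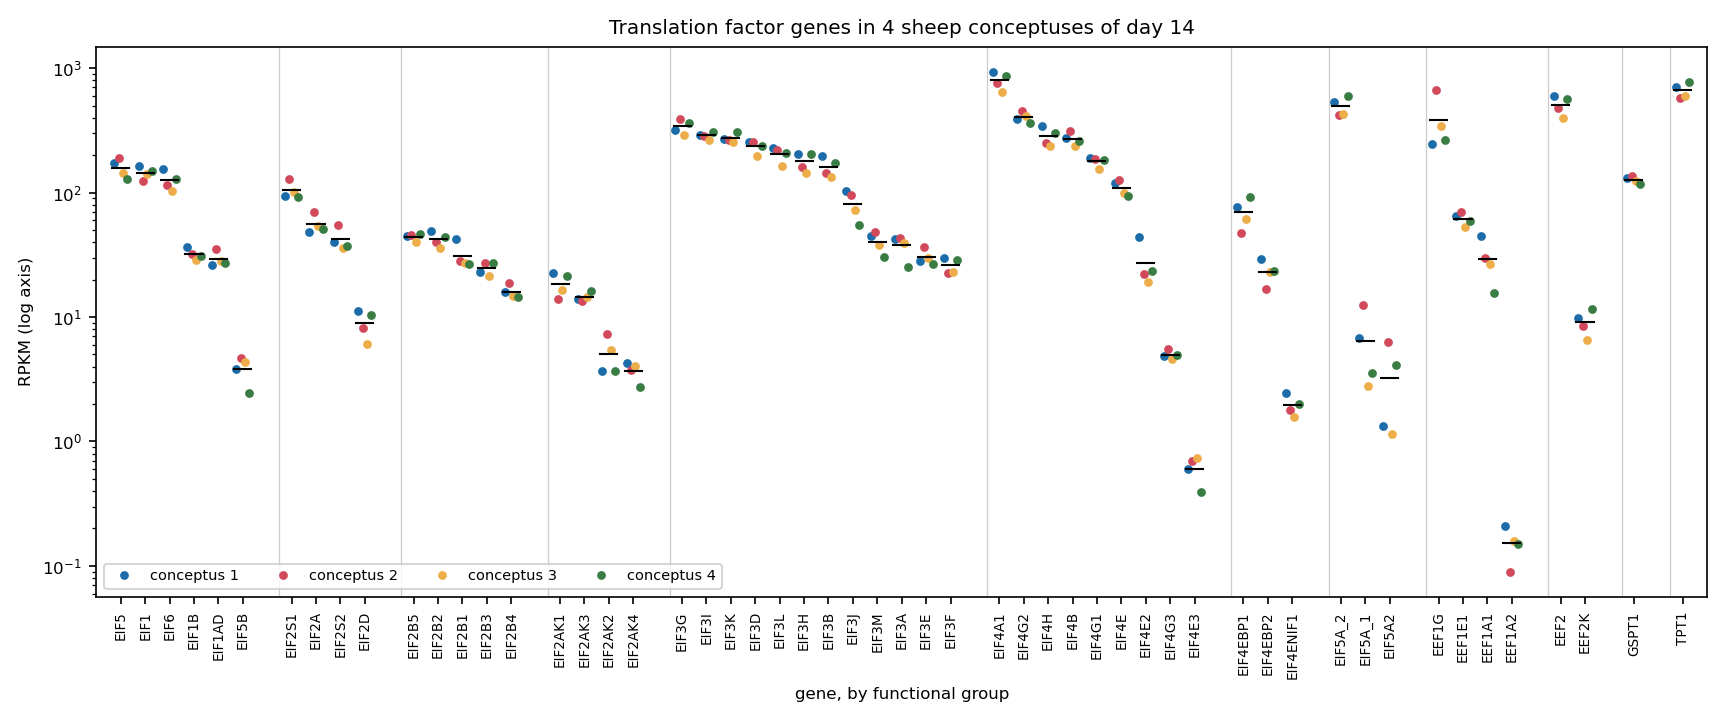
RPKM of each translation factor gene on a log axis, by functional group; each point is 1 conceptus and the black bar is the mean of the 4. EIF4E1B, listed at 0 in every library, is not drawn. Levels run from 801 RPKM for EIF4A1 down to 0.153 RPKM for EEF1A2, and for most genes the 4 conceptuses lie close together beside that range.

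The genes grouped by name under scanning and subunit joining divided into 3 with a mean above 100 RPKM and 3 at 32.1 RPKM or less. EIF5, which makes eIF2 hydrolyse its GTP at the start codon, was at 171, 189.9, 142 and 129 RPKM in conceptuses 1 to 4. EIF1, which keeps scanning ribosomes from starting at poor codons, was at 162, 124, 142 and 148 RPKM. EIF6, which holds the large subunit apart until it is mature, was at 155, 114, 102 and 129 RPKM. EIF5 was highest in conceptus 2, EIF1 and EIF6 in conceptus 1. EIF1B, the near relative of EIF1, stood at 32.1 ± 3.43 RPKM (SD, n = 4, as for each mean below), and EIF1AD, whose protein carries a domain of the eIF1A type, at 29.1 ± 4.01 RPKM. EIF5B, the GTPase that joins the subunits, was far lower than the others at 3.83, 4.71, 4.32 and 2.43 RPKM.

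For eIF2, which carries the initiator tRNA, genes of 2 of its 3 subunits were measured. EIF2S1, the alpha subunit and the target of the stress kinases, was at 93.8, 129, 100.4 and 92.5 RPKM in conceptuses 1 to 4. EIF2S2, the beta subunit, was at 40.03, 54.96, 36.2 and 37.1 RPKM. Conceptus 2 was the highest for both, and the ratio of EIF2S1 to EIF2S2 stayed between 2.34 and 2.78 in the 4 libraries. EIF2S3, the gamma subunit, is not analysed here. EIF2A, a separate factor that can bring initiator tRNA without GTP, was also highest in conceptus 2, at 48.3, 70.4, 53.4 and 50.9 RPKM. In conceptus 2 these genes were at 1.35 (EIF2S1), 1.46 (EIF2S2) and 1.38 (EIF2A) times the mean of the other 3 libraries. EIF2D, another tRNA-delivery factor with a part in recycling, did not share this order and was at 11.2, 8.08, 6.01 and 10.4 RPKM, lowest in conceptus 3.

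The 5 subunits of eIF2B, the exchange factor that recharges eIF2 with GTP, lay between 16.0 and 44.2 RPKM, within 2.76 times of each other. The catalytic epsilon subunit, EIF2B5, was the highest and the steadiest at 44.5, 45.9, 39.7 and 46.6 RPKM. EIF2B2 followed at 42.1 ± 5.43 RPKM, EIF2B3 stood at 24.7 ± 2.87 RPKM, and EIF2B4 was the lowest at 15.9, 18.8, 14.8 and 14.4 RPKM. EIF2B1, the alpha subunit that senses phosphorylated eIF2 within the complex, was at 42.3, 28.4, 26.95 and 26.7 RPKM. Conceptus 1 was thus 1.58 times the lowest library for EIF2B1 while the other 3 lay between 26.7 and 28.4 RPKM, and its mean without conceptus 1 was 27.3 RPKM.

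All 4 kinases that phosphorylate eIF2 alpha under stress averaged between 3.70 and 18.5 RPKM, below the 42.1 RPKM of the median translation factor gene. EIF2AK1, the heme-regulated kinase, was at 22.5, 14.02, 16.4 and 21.2 RPKM in conceptuses 1 to 4. EIF2AK3, the kinase of endoplasmic reticulum stress, was at 13.9, 13.4, 14.6 and 16.1 RPKM. EIF2AK1 was the higher within each conceptus, but the ranges of the 2 genes overlapped. EIF2AK2, the kinase activated by double-stranded RNA and induced by interferon in many cells, was at 3.68, 7.28, 5.44 and 3.70 RPKM. It was highest in conceptus 2. EIF2AK4, the kinase of amino acid shortage, was the lowest at 4.27, 3.73, 4.04 and 2.75 RPKM, and its range overlapped that of EIF2AK2.

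Subunit genes of eIF3 spanned a 13.1-fold range, although their products work in 1 complex. The 12 subunits measured ran from EIF3G at 341 ± 45.9 RPKM to EIF3F at 25.9 ± 3.71 RPKM. EIF3G, an RNA-binding subunit, was at 319, 391, 288 and 364 RPKM in conceptuses 1 to 4. EIF3I and EIF3B, which form a module with EIF3G, were at 290.1, 284, 265 and 309 RPKM and at 197, 144, 134 and 171 RPKM. EIF3I was the steadiest of the translation factor genes averaging 5 RPKM or more, at a coefficient of variation (CV, the SD as a percent of the mean) of 6.27%. EIF3D, a subunit that can itself bind the cap of some mRNA, stood at 235 ± 27.3 RPKM.

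Subunits of the structural core of eIF3 fell on both sides of a gap. EIF3K at 274 ± 24.05 RPKM, EIF3L at 205 ± 28.3 RPKM and EIF3H at 179 ± 30.7 RPKM were above it. EIF3M was at 44.8, 48.2, 37.9 and 30.6 RPKM in conceptuses 1 to 4. EIF3A, the largest subunit, was at 42.6, 43.3, 39.02 and 25.3 RPKM. EIF3E and EIF3F were at 28.1, 36.3, 29.9 and 26.5 RPKM and at 29.5, 22.7, 22.8 and 28.8 RPKM. These last 4 genes were the lowest subunits in every conceptus. EIF3J, a loosely bound subunit, lay between at 103, 95.1, 72.1 and 54.95 RPKM, lowest in conceptus 4. The 8 highest subunits kept 1 order in all 4 conceptuses, while the order among the lowest 4 changed between them. Of the 11 neighbouring pairs in the order of means, only EIF3B and EIF3J, and EIF3J and EIF3M, had values that did not overlap. The gene for subunit c is not analysed here, and reads of a gene with processed copies can be shared or lost in the authors' counting, which was not tested for any subunit.

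**Figure D2:**
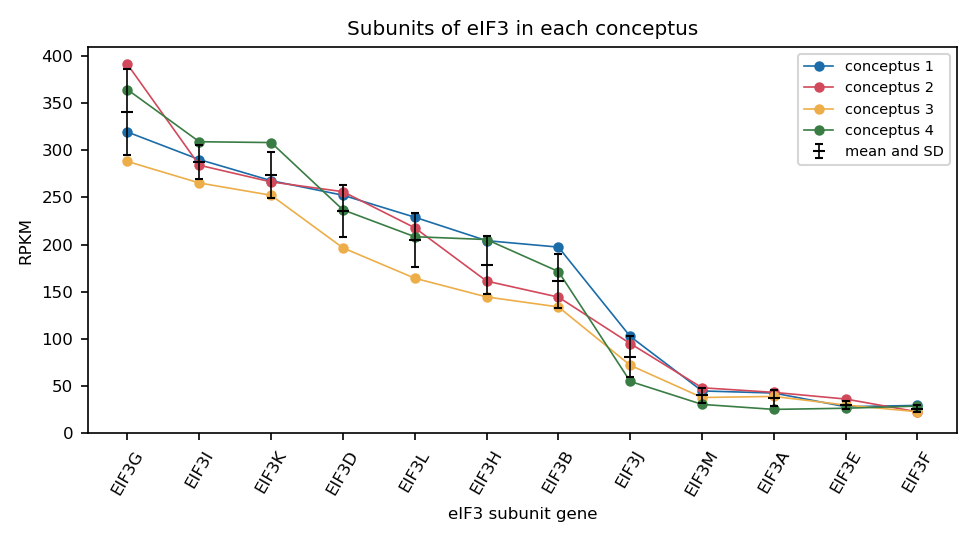
RPKM of the 12 measured eIF3 subunit genes in order of their mean; lines join the values of 1 conceptus, and the black marks are the mean and SD of the 4. The subunits from EIF3G to EIF3B lie at 134 RPKM or more in each conceptus and those from EIF3M to EIF3F at 48.2 RPKM or less, with EIF3J between.

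Genes of the cap complex held the highest level of all translation factors, EIF4A1, the helicase that unwinds the 5′ end of the mRNA. It was at 929.7, 759.8, 647 and 868 RPKM in conceptuses 1 to 4, rank 87 of all features. EIF4G2, a relative of the scaffold eIF4G that lacks the site for eIF4E, was at 392, 453, 413 and 363 RPKM. EIF4G1, the main scaffold, was at 191, 185, 154 and 184 RPKM. EIF4G2 was thus above EIF4G1 in 4 of 4 conceptuses, with the ratio of EIF4G1 to EIF4G2 at 0.443 ± 0.064. EIF4H and EIF4B, which stimulate the helicase, were at 283 ± 46.8 RPKM and 268 ± 31.3 RPKM. EIF4H was the higher in conceptuses 1, 3 and 4 and EIF4B in conceptus 2, so neither was above the other throughout. The scaffold paralog EIF4G3 stood at only 4.99 ± 0.422 RPKM. A further pair of features, which the table describes as factor 4A but which carry no symbol, stood at 49.3 and 2.83 RPKM.

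EIF4E, the cap-binding protein, was at 119.9, 126, 98.4 and 92.9 RPKM in conceptuses 1 to 4, between EIF4G1 and its own inhibitor. Its relative EIF4E2, which binds caps but is known for repressing translation, was at 43.8, 22.2, 19.2 and 23.5 RPKM. Conceptus 1 stood apart for EIF4E2, and the mean without it was 21.6 RPKM. EIF4E3, another relative, stood at 0.605 ± 0.155 RPKM, and EIF4E1B, known in mouse for its expression in oocytes, was listed at 0 in all 4 conceptuses. EIF4EBP1, which captures eIF4E until the kinase mTOR phosphorylates it, was at 75.8, 47.6, 60.99 and 92.6 RPKM. The paralog EIF4EBP2 was at 29.02, 16.8, 22.9 and 23.5 RPKM. Both inhibitors were lowest in conceptus 2, and the ratio of EIF4E to EIF4EBP1 ran from 1.00 in conceptus 4 to 2.65 in conceptus 2. EIF4ENIF1, which carries eIF4E into the nucleus, stood at 1.96 ± 0.378 RPKM.

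Factor eIF5A, the only protein family known to carry the modified amino acid hypusine, helps ribosomes past difficult stretches. The table holds 2 numbered features for EIF5A. The feature EIF5A_2 was at 536, 417, 426 and 592 RPKM in conceptuses 1 to 4, rank 150 of all features. The feature EIF5A_1 was at 6.77, 12.4, 2.80 and 3.52 RPKM, highest in conceptus 2. Nearly all signal under this name thus belonged to 1 feature, and how reads were divided between the 2 copies is not stated. The paralog EIF5A2, a separate gene, was at 1.32, 6.29, 1.15 and 4.15 RPKM, and its highest library, also conceptus 2, was 5.47 times the lowest. EIF5A2 averaged 3.23 RPKM, under the 5 RPKM minimum used below for such ratios, and the number of reads behind these values is unknown.

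Levels in the eEF1 complex, which brings aminoacyl-tRNA to the ribosome, were uneven. EEF1G, the gamma subunit, was at 245, 666, 344 and 264 RPKM in conceptuses 1 to 4. Conceptus 2 was far above the other 3, at 2.34 times their mean, and the mean of EEF1G without conceptus 2 was 284 RPKM. The delta subunit, present in the table as a feature named EF-1 that RefSeq lists as a synonym of EEF1D, was at 588, 426, 435 and 617 RPKM. Conceptus 2 was the lowest for EF-1, so the ratio of EF-1 to EEF1G fell below 1 in that conceptus alone, at 0.641 beside 1.27 to 2.40 in the others. EEF1E1, an eEF1-related protein that belongs to the multi-enzyme complex of aminoacyl-tRNA synthetases, stood at 61.5 ± 6.90 RPKM.

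EEF1A1, the subunit that carries the tRNA, was low for a gene that is among the most abundant mRNA of most cells. It was at 44.7, 29.9, 26.6 and 15.6 RPKM in conceptuses 1 to 4, rank 2118 of all features, and below EEF2 and EEF1G in each of them. A feature without a symbol, ENSOARG00000006149, which the table describes as elongation factor-1 alpha, was higher at 116, 121, 93.7 and 99.3 RPKM. It exceeded EEF1A1 by 2.60 to 6.36 times in the 4 conceptuses. With 3 further features of the same description, the sum for eEF1 alpha came to 138 ± 22.7 RPKM, still under EEF2. EEF1A1 belongs to a family with many near-identical copies, so its value is uncertain, and the part of shared or discarded reads in it was not tested. EEF1A2, the paralog of muscle and neurons, was at 0.210, 0.0900, 0.160 and 0.150 RPKM.

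EEF2, the translocase of elongation, was at 592, 476, 400.5 and 562 RPKM in conceptuses 1 to 4, rank 147. EEF2K, the kinase that inactivates it, was at 9.79, 8.41, 6.48 and 11.6 RPKM. For EEF2 and for EEF2K alike, conceptuses 1 and 4 were the highest and conceptus 3 the lowest. GSPT1, the GTPase of termination known as eRF3a, was at 130.2, 136, 125 and 116 RPKM. Its CV of 6.60% was rank 2 from the steadiest of the 47 genes averaging 5 RPKM or more, but with libraries divided by their sums it was 11.97% and rank 12. Its partner ETF1 is not analysed here. TPT1, the translationally controlled tumour protein, an abundant protein whose mRNA is regulated together with those of ribosomal proteins, was the highest of the 55 genes after EIF4A1 at 708, 574, 598 and 768 RPKM.

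Related factors were compared within each conceptus for 16 of 21 pairs of paralogs or partners; the other 5 pairs hold a gene that is not analysed here. In 14 of the 16 pairs the same gene was the higher in 4 of 4 conceptuses. No such count was made over pairs of other features, so it only describes these pairs. Those with EEF1A1 rest on its uncertain value. With signs flipped in every possible way (an exact permutation test, two-sided), p was 0.125 for each of these 14, and 0.143 after Benjamini-Hochberg adjustment over the 16 pairs. The smallest p that 4 conceptuses allow is 0.125, so no pair could pass 0.05. On the log2(RPKM + 1) scale EIF5 exceeded EIF5B by 5.05 ± 0.214, EIF4G1 exceeded EIF4G3 by 4.90 ± 0.114, EIF1 exceeded EIF1B by 2.13 ± 0.164 and EIF4EBP1 exceeded EIF4EBP2 by 1.53 ± 0.274.

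The size of the difference beside its SD varied between pairs. EIF4E exceeded EIF4E2 by 2.03 ± 0.453 and EIF4EBP1 by 0.68 ± 0.564 on the same scale. For the latter pair the smallest ratio was 1.00, in conceptus 4, where EIF4E was at 92.9 and EIF4EBP1 at 92.6 RPKM. The log2 ratio of EIF2AK4 over EIF2AK3 was −1.73 ± 0.309, and that of EIF2AK1 over EIF2AK2 was 1.71 ± 0.697. The pairs without a common direction were EIF4B with EIF4H, at −0.067 ± 0.275 (exact permutation p = 0.625), and the feature EF-1 with EEF1G, at 0.55 ± 0.898 (exact permutation p = 0.375). EIF4E3 and EEF1A2 were under 1 RPKM, so the pseudocount sets the size of their log2 ratios; as plain ratios EIF4E was 133 to 238 times EIF4E3, and EEF1A1 was 104 to 332 times EEF1A2.

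**Figure D3:**
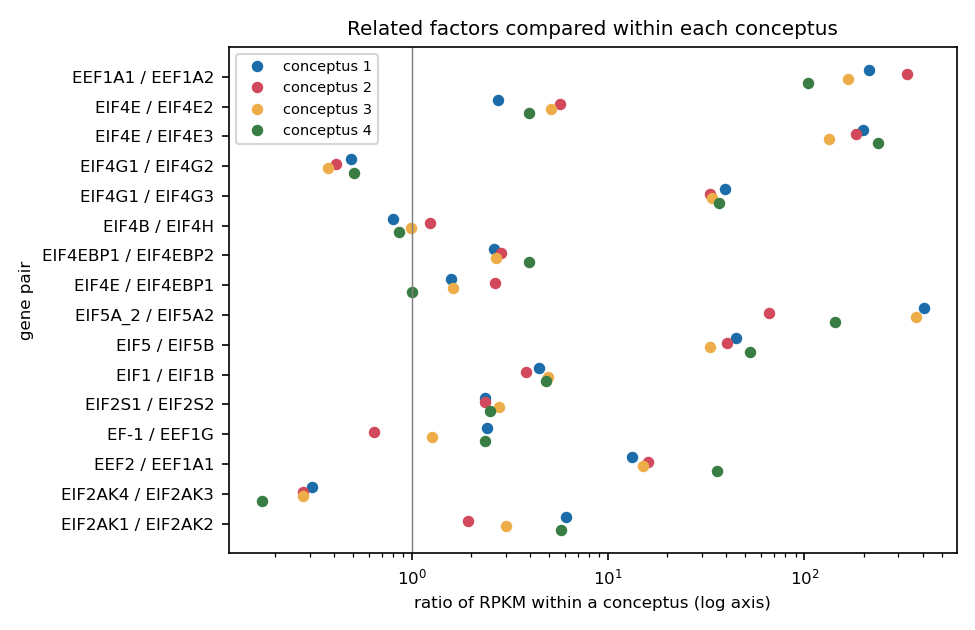
Ratio of RPKM of related factors within each conceptus on a log axis, with equal levels at the grey line; each point is 1 conceptus. In 14 of 16 pairs all points lie on 1 side of the line, and only EIF4B / EIF4H and EF-1 / EEF1G have points on both sides.

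By median CV, translation factor genes were steadier between conceptuses than all features at 100 RPKM or more, but not between 5 and 100 RPKM. Among the 47 translation factor genes averaging 5 RPKM or more the median CV was 16.3%, beside 20.5% over all 6374 such features. For the 22 genes averaging 100 RPKM or more it was 14.3%, beside 19.8% for 668 features, and for the 25 between 5 and 100 RPKM it was 20.8%, beside 20.6% for 5706 features. Values more than 2 times apart between conceptuses were seen for 4 of the 47 genes, 8.51%, where the background over all such features was 21.9%. These 4 were EIF5A_1 (4.44 times), EEF1A1 (2.86), EEF1G (2.72) and EIF4E2 (2.28). For EIF5A_1 and EEF1A1 the division of reads between similar copies is uncertain. The far higher feature EIF5A_2 was 1.42 times apart between conceptuses. The feature ENSOARG00000006149, described as elongation factor-1 alpha, was 1.29 times apart. The count of 4 depends on single libraries. Without conceptus 1 the 2 left were EEF1G and EIF5A_1, and without conceptus 2 they were EEF1A1 and EIF4E2. With each library divided by its own sum, a scaling added after seeing the data, the same 47 genes gave a count of 5, or 10.6%, beside 21.4% of the same 6374 features, and EIF2AK2 was the gene added.

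The spread was tested with limma, which set each feature's variance on the log2(RPKM + 1) scale against the trend over all 9602 features averaging 1 RPKM or more. It called 0 of the 52 translation factor genes tested and 0 of all features (0.0%) at a Benjamini-Hochberg adjusted p under 0.05. At an unadjusted p under 0.05 it had 2 translation factor genes, or 3.85%, beside 4.85% of all features. These were EIF5A2 and EIF5A_1, each with a limma adjusted p of 0.984. EEF1G likewise had a limma adjusted p of 0.984. In simulated data for the 9602 features, limma called 12 of 100 features with 1 library raised by 3 log2 units. It called 100 of 100 with 1 library raised by 5, with 4 false calls. Both sets were raised in the same run, and features were drawn around 1 typical variance without a trend with level. These counts therefore do not give the sensitivity in the real data. The lack of calls, also for EEF1G, is not read as a lack of differences.

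**Figure D4:**
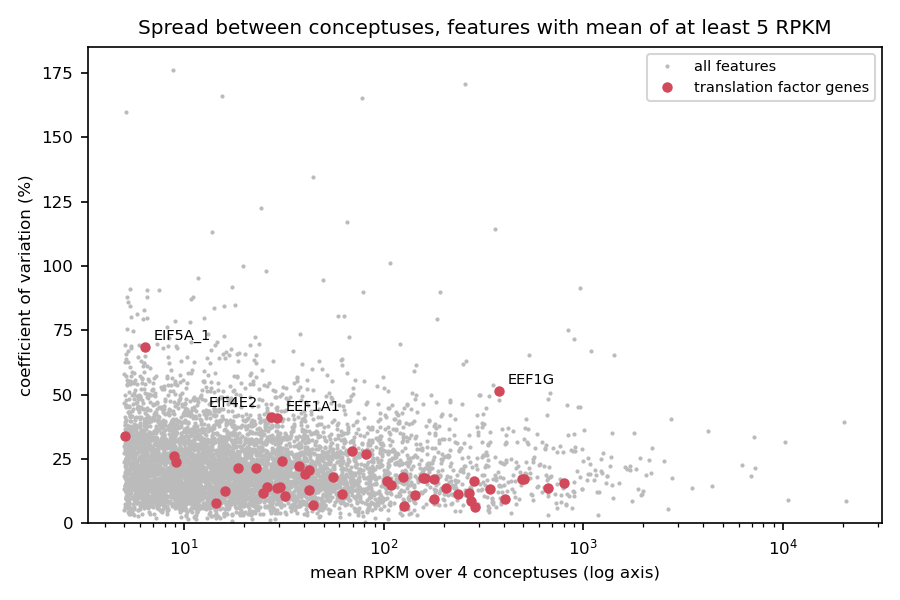
Coefficient of variation over 4 conceptuses against mean RPKM on a log axis, for features averaging 5 RPKM or more; grey points are all features and red points the 47 translation factor genes. EEF1G, at a CV of 51.5%, lies above the other abundant translation factors, and the 4 genes over 2 times as high in 1 library as in another are named.

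Conceptus 3 was the lowest for 23 of the 47 genes averaging 5 RPKM or more and the highest for none of them. Over all 6374 such features conceptus 3 was the lowest in 31.2% and the highest in 14.4%. Conceptus 2 was the highest for 20 of the 47, or 42.6%, beside 26.2% of all features. With libraries divided by their sums, conceptus 3 was the lowest for 22, or 46.8%, beside 27.0% of all features, and the highest for 1 (EIF2AK3), beside 16.6%. Conceptus 2 was then the highest for 25, or 53.2%, beside 34.8% of all features. As the median deviation of each gene from its own mean on the log2(RPKM + 1) scale, the translation factors stood at 0.135, 0.078, −0.144 and 0.021 in conceptuses 1 to 4. All features averaging 1 RPKM or more stood at 0.083, −0.056, −0.071 and 0.047. The sign in conceptus 4 flips to −0.078 when libraries are divided by their sums and to −0.026 when they are centred on features averaging 5 RPKM or more, while the other 3 signs stay the same under both scalings.

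The pair of conceptuses in which a gene was highest was counted against all features. For 19 of the 47, among them EIF4A1, TPT1, EEF2, EIF5A_2, EIF4H and EIF3H, conceptuses 1 and 4 were the highest pair, 40.4% beside 37.7% of all features. For 17, among them EIF4B, EIF3D, EIF4E, EIF5 and GSPT1, conceptuses 1 and 2 were the highest pair, 36.2% beside 18.7% of all features. For 7 genes, EIF4G2, EEF1G, EIF2S1, EIF2A, EIF3E, EIF1AD and EIF2AK2, conceptuses 2 and 3 were the highest, 14.9% beside 17.7%. The first and the last of these shares lie near those of all features. The column sums of the libraries, 499127, 454387, 471482 and 522308 RPKM in conceptuses 1 to 4, were also highest in conceptuses 1 and 4. With libraries divided by these sums, conceptuses 1 and 4 were the highest pair for 11 of the 47 (23.4%, beside 27.1% of all features) and conceptuses 1 and 2 for 20 (42.6%, beside 23.5%). The part of the column sums in these orders was not tested beyond that scaling.

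**Figure D5:**
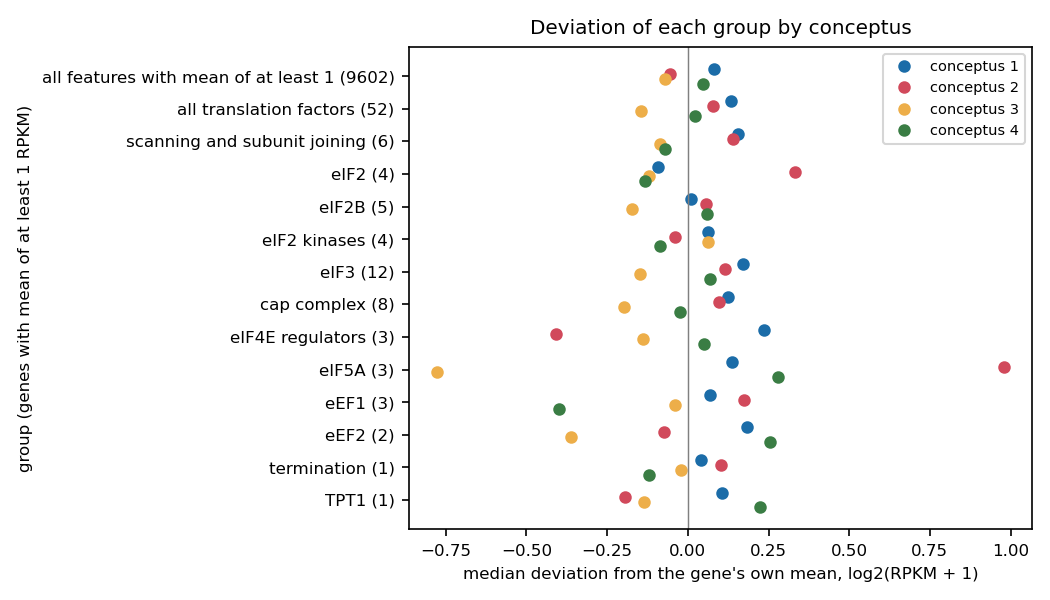
Median deviation of the genes of each functional group from their own mean on the log2(RPKM + 1) scale, by conceptus, for genes averaging 1 RPKM or more; the number of genes is in brackets and the top line is all features. The median of EIF2S1, EIF2S2, EIF2A and EIF2D is at 0.33 in conceptus 2 and below 0 in the others, and the translation factors together are lowest in conceptus 3 at −0.14; the 3 eIF5A features spread furthest.

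By group, the median of EIF2S1, EIF2S2, EIF2A and EIF2D stood at 0.33 in conceptus 2 and between −0.13 and −0.091 in the others on that scale, although EIF2D in conceptus 2 was at 0.878 times the mean of the others. The summed level of these 4 genes was 262 RPKM in conceptus 2 against 191 to 196 RPKM. The summed level of eIF3 was 1647 RPKM in conceptus 3 against 1967 to 2008 RPKM. The inhibitors and transporter of eIF4E stood at −0.41 in conceptus 2 and 0.24 in conceptus 1. The median of the 4 kinases of eIF2 lay between −0.085 and 0.063, over genes that went opposite ways, since EIF2AK1 was lowest and EIF2AK2 highest in conceptus 2.

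Partners of these factors were described from 6 lists with 98 genes, of which 88 are in the table. Among 19 measured genes that bind the cap complex or the poly(A) tail, 15 averaged 5 RPKM or more, led by the poly(A)-binding protein gene PABPC1 at 209, 175, 231 and 199 RPKM in conceptuses 1 to 4. The helicase DDX3X at 95.1 ± 9.27 RPKM and LARP1, which holds back mRNA of the translation machinery when mTOR is off, at 91.1 ± 6.35 RPKM followed. PDCD4, an inhibitor of eIF4A, stood at only 1.24 ± 0.541 RPKM. Of 13 factors of start-site choice, recycling and rescue, 10 reached 5 RPKM. BZW2, an eIF5-like regulator, led them at 99.4, 177, 149 and 117 RPKM, highest in conceptus 2. The ribosome recycling ATPase ABCE1 was at 55.9 ± 15.5 RPKM, ABCF1 at 64.8 ± 12.4 RPKM, and GSPT2, the paralog of GSPT1, at 0.510 ± 0.0716 RPKM.

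Enzymes that modify eIF5A and eEF2 were low beside EIF5A_2 and EEF2, but not all were low beside EIF5A_1 and EIF5A2. Of 9 such genes 6 reached a mean of 5 RPKM and none 100 RPKM, with the diphthamide genes DPH7 at 25.7 ± 3.70 RPKM, DPH3 at 19.8 ± 1.88 RPKM and DPH5 at 16.8 ± 1.41 RPKM the highest. The hypusine enzymes DHPS and DOHH were at 19.6, 11.95, 16.2 and 13.8 RPKM and at 6.11, 1.66, 2.80 and 6.76 RPKM. DHPS, at a mean of 15.4 RPKM, was above EIF5A_1 at 6.38 RPKM and EIF5A2 at 3.23 RPKM. In the list of mTOR and S6 kinase control, 14 of 19 reached 5 RPKM, led by the lysosomal anchor genes LAMTOR1 at 111 ± 28.1 RPKM and LAMTOR4 at 66.97 ± 13.7 RPKM and the GTPase gene RRAGA at 71.5 ± 3.43 RPKM. MTOR itself was at 12.2, 13.1, 15.5 and 13.4 RPKM and RPS6KB1, the S6 kinase, at 36.1, 59.3, 63.2 and 49.4 RPKM. RPS6, the ribosomal protein that this kinase phosphorylates and that every cell makes, was at 1.34, 0.840, 0.510 and 1.34 RPKM, so a low value in this table is not read here as absence of the transcript.

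Genes that counter or follow eIF2 phosphorylation were led by ATF4, the transcription factor whose mRNA is translated when eIF2 is phosphorylated, at 277, 277, 382 and 329.6 RPKM in conceptuses 1 to 4. The kinase inhibitor gene DNAJC3 stood at 109 ± 17.1 RPKM and the phosphatase subunit PPP1CB at 52.9 ± 2.96 RPKM. The ATF4 target TRIB3 was at 7.88, 4.04, 21.3 and 25.5 RPKM, higher in conceptuses 3 and 4. Other targets had other orders, with ASNS, which makes asparagine, at 7.35, 5.63, 5.22 and 3.71 RPKM and CHAC1, which degrades glutathione, at 2.04, 1.20, 1.71 and 1.34 RPKM, while the stress target DDIT3 did not exceed 0.29 RPKM in any conceptus. In that list 11 of 13 measured genes reached 5 RPKM. All 15 measured mitochondrial translation genes reached 5 RPKM, led by SLIRP, which stabilises mitochondrial mRNA, at 209.7 ± 22.7 RPKM, ICT1, a release factor of the mitochondrial ribosome, at 71.3 ± 4.30 RPKM and the initiation factor MTIF3 at 51.8 ± 9.65 RPKM. The list medians lay between 9.66 RPKM for the modifying enzymes and 23.9 RPKM for the cap and poly(A) partners, below the 42.1 RPKM of the translation factors themselves.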

How the data were processed

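Total RNA depleted of ribosomal RNA was read on an Ion Proton with strand-specific libraries and Torrent Suite 4.0.2 base calls, per the labels' protocols. The submitters' processing notes name the genome build Oar 3.1. Barcoded libraries shared sequencing chips, and which did so is not stated. No source used here names the aligner, counter or annotation, or says whether counting used the strand. The authors deposited RPKM for 25197 features; the unit is named only by a second deposited table, whose 5527 features, at 5 RPKM or more in all 4 libraries, have identical values. Read counts are unknown, so no counting interval is given. Each conceptus came from its own ewe and was read as a single library, so differences between conceptuses and between libraries cannot be told apart. The permutation test weighs the mean log ratio of a pair against its sign flips over these 4 conceptuses. The limma test sets a feature's variance over them against that of other features.

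Names were matched to the RefSeq table of another assembly, ARS-UI_Ramb_v3.0, for 53 of the 55 genes. Genes, groups, pairs and partner lists were chosen with earlier results of these data known. All 55 genes could be named. Values in each conceptus are given for many of the most abundant 25, pair members, extremes of each group, and the most and least variable genes. Others are given as means with SD. Of partner lists the 3 highest and a few chosen after their values were seen are given, many of them as means with SD. EIF5A and EEF1D name no feature of the table, so the features EIF5A_2 and EF-1 took their place in pairs, a choice made after the data were examined. Limma 3.58.1 in R 4.3.3 was fitted on log2(RPKM + 1), a pseudocount of 1, with a robust trended prior and an upper-tail F test; it was tested on simulated data. Python 3.11.15, numpy 2.4.6, pandas 2.3.3 and matplotlib 3.10.9 were used. Alternatives were a pseudocount of 0.1, other filters, scaling by column sums or medians, and leaving out each conceptus.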

Additional observations from a re-analysis of the deposited data

Results flagged for a closer look

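In 99 sets of 4 values (single genes, summed groups and pair ratios), the distance of the outermost conceptus from the next was divided by the range of all 4, and 4 sets exceeded the 95% critical value of Dixon's test. Chance gives about 1 in 20, or 4.95 sets, so 4 is close to the number that chance gives. For EIF2B1 conceptus 1 had 42.3 RPKM and the others had 26.7 to 28.4 RPKM. The summed RPKM of EIF2S1, EIF2S2, EIF2A and EIF2D was 262 in conceptus 2 against 191 to 196 in the others. The summed RPKM of the eIF3 group was 1647 in conceptus 3 against 1967 to 2008 in the others. As shares of the summed RPKM of a library, a scaling added after seeing the data, none of these 3 exceeded the critical value: EIF2B1 ran from 0.00511% to 0.00847%, the eIF2 sum from 0.0365% to 0.0577% and the eIF3 sum from 0.349% to 0.433%. The log2 ratio of EIF4EBP1 over EIF4EBP2 was highest in conceptus 4, at 1.94, where EIF4EBP1 was 3.95 times EIF4EBP2 against 2.61 to 2.83 times in the others.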

How the results depend on the processing

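The median level of the translation factors, 5.42 on the log2(RPKM + 1) scale, was 6.44 with each library divided by its sum and rescaled, a change of unit, and 5.65 among features averaging 1 RPKM or more, where fewer genes enter. Their share of a library, 1.49%, was 1.87% without the 10 highest features, which shrinks the denominator. With division by column sums the minimums were kept at 1 and 5 on the rescaled values, which lets more genes in. There limma called 4 of 10639 features and 0 of 53 translation factors, and 4 translation factors (7.55%, beside 5.15% of all features) had an unadjusted p under 0.05. The highest library was more than 2 times the lowest for 7 of 51 translation factors (13.7%, beside 24.5% of 8026 features), of which EIF5B and EIF5A2 averaged under 5 RPKM as deposited, and for 5 of the original 47. The deviation in conceptus 4 was −0.078. Centring on features averaging 5 RPKM or more put that deviation at −0.026. Running limma only on features averaging 5 RPKM or more left 1 translation factor (2.13%, beside 4.64% of all features) at an unadjusted p under 0.05. Without 1 conceptus, limma called 0 to 11 features and 0 translation factors. An unadjusted limma p under 0.05 was then found for 2 to 4 translation factors, or 3.85% to 7.69%, beside 5.26% to 5.75% of all features. A highest library over 2 times the lowest was then found for 2 to 3 translation factors, and no share of all features was computed for that count. The log2 ratio of EIF4B over EIF4H then ran from −0.189 to 0.018. The causes of these changes in calls and sign were not tested. No paired comparison of conditions was possible because all samples form 1 group. Without read counts the depth behind low values, such as those of EIF4E3 and EEF1A2, is unknown.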
